A study of Mus musculus with 4 samples.

Results

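Of the 16126 regions of the mouse heart in the deposited FoxO1 ChIP-seq table, 1131 (7.01%) lay beside a gene without overlapping a CpG island. These gene flank regions were chosen by annotation alone: no CpG island in the region, at least 1 assigned gene, every assigned gene labelled upstream or downstream of the region's position rather than around it, and more than 1000 bp to the nearest assigned start site. They made up 15.3% of the 7399 regions without a CpG island. No filter on signal was applied, so all 1131 entered every count below unless another number is given.

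FoxO1 belongs to the forkhead family of transcription factors and leaves the nucleus when insulin or growth factors activate Akt. In the heart it is known for control of metabolic, autophagy and stress genes, and in the vessel wall for restraining endothelial growth. Forkhead proteins bind a short core of letters in DNA, and much of their binding lies away from start sites, in enhancers, which are stretches that can act on a gene from some distance. Flanks without CpG islands are one of the places where enhancers lie. A region's assignment to a gene in the table rests on position and does not show that the region acts on that gene.

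The hearts came from male wild type C57BL/6 mice aged 12 weeks in 3 conditions, each of 7 days. In the TAC group the aorta was narrowed by surgery, which loads the left ventricle with pressure. In the Iso group isoproterenol, a beta-adrenergic agonist, was injected under the skin at 3 mg/kg per day, and in the Veh/Sham group vehicle was injected and a sham operation done. Hearts of 3 mice were pooled in each condition, and each pool gave 1 library with an anti-FoxO1 antibody, so there was no spread between replicates and no test could be made. Every difference below is one between 2 libraries of whole hearts, which hold many cell types. An input library of pooled DNA was not analysed here.

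Each region has a mean signal (the mean coverage over its length) and a peak depth (its highest coverage) in each library, as the authors deposited them. The table gives no total read count, and their scaling to each other was not given in the sources used here. Over all 16126 regions the median log2 ratio of mean signal was 0.59 between TAC and Veh/Sham, 0.30 between Iso and Veh/Sham and 0.29 between TAC and Iso. Ratios were therefore also read relative to these medians. Both comparisons with Veh/Sham share that 1 library, and their values are set side by side without a correlation between them.

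The flank regions were short stretches spread over 20 chromosomes. Their median length was 354 bp (194 to 3964), and 109 lay on chromosome 11 and 7 on chromosome X. The median distance to the nearest assigned start was 6834 bp (1001 to 317259). In 520 (46%) every assigned gene was approached from upstream, in 414 (36.6%) from downstream, and 197 (17.4%) lay upstream of one gene and downstream of another. The distances behind these sides differed, with a median of 4866 bp for upstream regions and 16515 bp for downstream regions. A downstream distance spans the gene itself: all 702 downstream assignments that matched a RefSeq gene lay within 10000 bp of that gene's nearest edge, at a median of 4562.5 bp. One gene was assigned in 797 regions (70.5%) and more than 1 in 334 (29.5%).

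The sequences of the flank regions as such were not used here, but some of the regions met a transcript start that the deposited gene assignment did not carry. In RefSeq (GRCm38.p6), 341 regions (30.2%, 95% Wilson interval 27.5 to 32.9) overlapped an annotated gene, among them 169 with a long non-coding RNA gene and 154 with a protein-coding gene. The 300 bp window around a RefSeq start, 250 bp before it to 50 bp after it, met 35 regions (3.09%, 2.23 to 4.27), through 38 windows of 34 genes. Of these genes 22 had predicted or numbered names. This comparison with RefSeq was chosen after values of the table had been seen. The windows shown here are those at the strongest flank regions (Gm51752 at Rcsd1, and Neil1), the pair that held a full forkhead core (Pbld1 and Eps8l1), and one whose region was highest in Iso (F730311O21Rik at Nuak2). Capitals mark the letters searched on either strand: the forkhead core GTAAACA, the shorter TAAACA that it contains, and CAAAACAA, known from insulin response elements.
Gm51752, chr1:165717670-165717969, plus strand: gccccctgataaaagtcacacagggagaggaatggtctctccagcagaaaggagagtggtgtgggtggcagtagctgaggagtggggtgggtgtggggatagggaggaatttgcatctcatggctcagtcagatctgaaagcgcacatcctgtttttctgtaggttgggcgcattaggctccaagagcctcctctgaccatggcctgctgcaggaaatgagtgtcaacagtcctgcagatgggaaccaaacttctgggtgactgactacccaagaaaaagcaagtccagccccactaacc
Neil1, chr9:57148256-57148555, minus strand: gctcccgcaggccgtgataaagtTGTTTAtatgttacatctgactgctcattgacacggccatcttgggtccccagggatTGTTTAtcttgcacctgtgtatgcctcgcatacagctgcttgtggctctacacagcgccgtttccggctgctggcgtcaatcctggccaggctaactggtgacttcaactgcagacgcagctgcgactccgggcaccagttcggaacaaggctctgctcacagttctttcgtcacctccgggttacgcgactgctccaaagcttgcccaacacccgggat
Pbld1, chr10:63060463-63060762, plus strand: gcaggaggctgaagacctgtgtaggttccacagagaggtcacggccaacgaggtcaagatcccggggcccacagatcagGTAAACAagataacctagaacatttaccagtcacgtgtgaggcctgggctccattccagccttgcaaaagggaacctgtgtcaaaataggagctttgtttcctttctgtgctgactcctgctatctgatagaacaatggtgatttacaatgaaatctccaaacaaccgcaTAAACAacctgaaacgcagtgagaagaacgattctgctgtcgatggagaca
Eps8l1, chr7:4460447-4460746, plus strand: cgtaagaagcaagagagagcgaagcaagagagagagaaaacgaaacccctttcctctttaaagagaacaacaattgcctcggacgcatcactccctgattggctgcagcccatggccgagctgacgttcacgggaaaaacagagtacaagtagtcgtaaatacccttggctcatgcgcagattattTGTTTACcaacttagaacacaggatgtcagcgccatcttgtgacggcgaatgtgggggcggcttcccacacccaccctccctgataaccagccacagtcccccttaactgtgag
F730311O21Rik, chr1:132341834-132342133, plus strand: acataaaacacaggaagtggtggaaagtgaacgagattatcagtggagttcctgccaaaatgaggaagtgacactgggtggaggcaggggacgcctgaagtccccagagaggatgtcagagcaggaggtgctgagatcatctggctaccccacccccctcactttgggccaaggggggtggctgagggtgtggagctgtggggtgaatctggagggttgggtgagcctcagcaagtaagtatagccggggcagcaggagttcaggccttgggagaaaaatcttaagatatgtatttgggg

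GTAAACA or its reverse TGTTTAC stood in 2 of the 38 windows (5.26%, 95% Wilson interval 1.46 to 17.3), against 2.98% of 7850 RefSeq start windows that met any region of the table and 3.65% of all 32851 start windows. TAAACA stood in 6 of the 38 (15.8%, 7.44 to 30.4), against 7.81% and 13.4%. CAAAACAA stood in 2 of the 38 (5.26%), against 1.63% and 2.51%. Both are overlapping windows of F730311O21Rik that hold the same stretch, so no interval is given. Neither is the F730311O21Rik window printed above, and the stretch lies outside the FoxO1 region. The intervals for the flank windows are wide and hold the share of all start windows for both forkhead runs. The flank windows had a median GC content of 53.7% and a median of 6 CpG, against 62.5% and 23 CpG in windows that met any region, and 52.7% and 7 CpG in all start windows. At Pbld1 the GTAAACA and at Eps8l1 the TGTTTAC lay inside the FoxO1 region itself. The Pbld1 region had a mean signal of 13.5 in TAC, 12.8 in Iso and 11.6 in Veh/Sham, and the Eps8l1 region 15.3 in TAC, 14.9 in Iso and 10.5 in Veh/Sham. Both regions were called in all 3 libraries, and in both the order of mean signal was TAC, Iso and Veh/Sham. Their peak depths did not share an order, with 20 in TAC, 24 in Iso and 25 in Veh/Sham at Pbld1 and 20 in TAC, 21 in Iso and 16 in Veh/Sham at Eps8l1.

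The 35 regions at a RefSeq start had higher medians than the rest in each library. Their median mean signal was 14.2 in TAC, 14.9 in Iso and 9.57 in Veh/Sham, against 12.8 in TAC, 11.3 in Iso and 7.63 in Veh/Sham for the other 1096. An interval was called in at least 1 library for 29 of the 35. No library had one in 33.2% of all flank regions and 30.5% of all regions. The 35 were also longer, with a median of 491 bp against 350.5 bp for the other flank regions. Of the 35, 12 met a start of their own assigned gene, which means an alternative start that the deposited distance did not use.

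Across the flank regions as a whole, FoxO1 signal was higher in both hypertrophy libraries than in Veh/Sham. The median mean signal was 12.9 in TAC (range 0 to 37.9), 11.3 in Iso (1.17 to 46.2) and 7.67 in Veh/Sham (1 to 40.5), and the median peak depth was 17 in TAC, 16 in Iso and 11 in Veh/Sham. Over all regions the median mean signal was 14 in TAC, 11 in Iso and 8.71 in Veh/Sham. Relative to the whole table, flank regions were thus lower in TAC and in Veh/Sham and slightly higher in Iso. TAC was the highest library in 622 flank regions (55%), Iso in 422 (37.3%) and Veh/Sham in 87 (7.69%), against 63.6%, 26.6% and 9.77% of all regions for TAC, Iso and Veh/Sham.

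**Figure D1:**
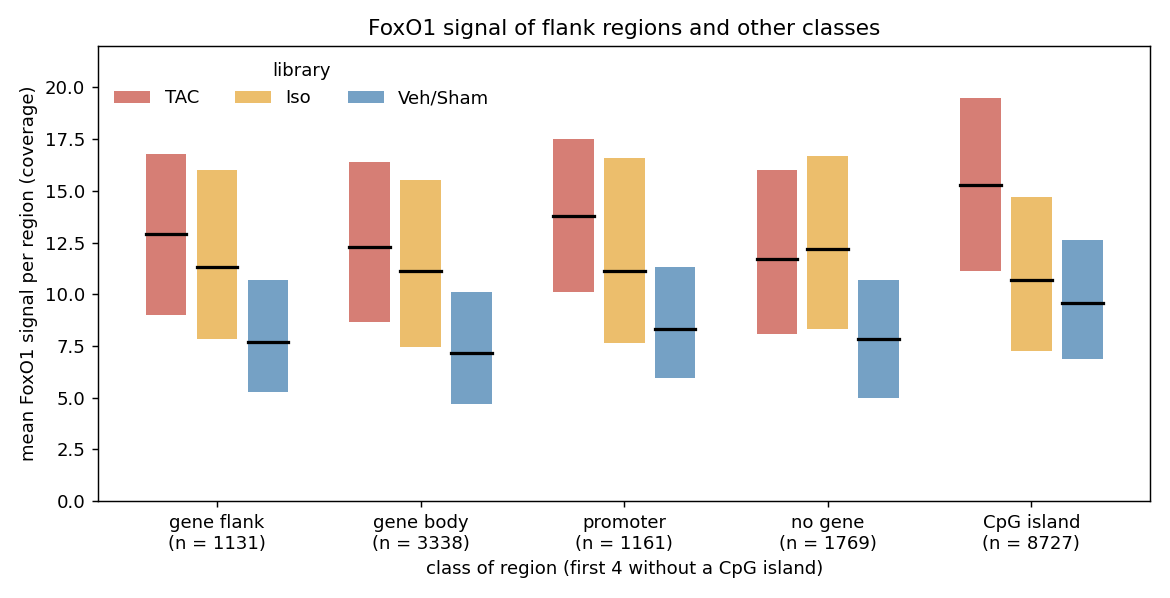
Mean FoxO1 signal per region (coverage, vertical axis) in the TAC, Iso and Veh/Sham libraries for flank regions and 4 other classes; boxes span the 25th to 75th percentile of regions and black lines are medians. Flank medians are 12.9 in TAC, 11.3 in Iso and 7.67 in Veh/Sham, and the gap between TAC and Iso is widest in CpG island regions (15.3 in TAC, 10.7 in Iso).

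TAC against Veh/Sham gave a median log2 ratio of 0.65 over the flank regions (95% order-statistic interval 0.60 to 0.69), close to the 0.59 of all regions. With a pseudocount of 1, 608 flank regions (53.8%) were at least 1.5-fold higher in TAC and 59 (5.22%) at least 1.5-fold lower, where 50.3% of all regions were higher and 4.19% lower. Taken against the table's median ratio, 258 (22.8%) stood 1.5-fold above it and 196 (17.3%) 1.5-fold below it, against 18.4% and 17% of all regions. The flank share was close to the table's in each of these counts, with the largest gap above the median ratio.

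Iso against Veh/Sham set the flank regions further apart from the table. Their median log2 ratio was 0.51 (0.46 to 0.56), against 0.30 in all regions. Of the flank regions, 505 (44.7%) were at least 1.5-fold higher in Iso and 58 (5.13%) at least 1.5-fold lower, where 31.8% of all regions were higher and 8.01% lower. Taken against the table's median ratio, 321 (28.4%) stood above and 122 (10.8%) below, against 17.8% and 16.1% of all regions. CpG island regions had a median of 0.14, while gene body regions without an island had 0.56, promoter regions without an island 0.39 and regions with no gene 0.60.

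For TAC against Iso the flank median was 0.15 (0.11 to 0.20), against 0.29 in all regions. Of the flank regions, 279 (24.7%) were at least 1.5-fold higher in TAC and 161 (14.2%) at least 1.5-fold lower, where 31.4% of all regions were higher and 8.86% lower. Taken against the table's median ratio, 152 (13.4%) stood above and 297 (26.3%) below, against 17% and 17.4% of all regions. The flank median is thus below 0 once the table's median is subtracted, at -0.15. Gene body regions had a median of 0.14, promoter regions without an island 0.21, regions with no gene -0.03 and CpG island regions 0.42, so the flank regions sat with gene bodies and between the promoter class and the class with no gene.

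The authors' interval calls, made per library, are a second readout. An interval was called in TAC for 444 flank regions (39.3%, 95% Wilson interval 36.5 to 42.1), in Iso for 439 (38.8%, 36 to 41.7) and in Veh/Sham for 469 (41.5%, 38.6 to 44.4). The shares of all regions were 45% in TAC, 36% in Iso and 49.1% in Veh/Sham. In 213 flank regions (18.8%, against 22.1% of all regions) all 3 libraries had an interval. These had the highest median signal (18.5 in TAC, 17.5 in Iso and 12 in Veh/Sham). An interval in TAC alone was present in 137 (12.1%, against 11.5% of all regions), in Iso alone in 111 (9.81%, against 6.06%) and in Veh/Sham alone in 123 (10.9%, against 13.5%). None of the 3 libraries had an interval in 376 (33.2%, against 30.5%); the merged table also carries columns of 2 libraries that were not used here.

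Within the flank regions, the balance between TAC and Iso went with distance from the nearest start. The median log2 ratio of TAC against Iso was 0.31 (0.18 to 0.41) in the 170 regions up to 2000 bp away, 0.19 in the 263 from there to 5000 bp, 0.17 in the 381 from there to 10000 bp and 0.00 (-0.08 to 0.10) in the 317 beyond 10000 bp. The intervals of the nearest and the farthest bin do not overlap, and those of neighbouring middle bins do. They treat regions as independent, although 36.8% of the flank regions lay within 5000 bp of another. Iso against Veh/Sham went the other way, with medians of 0.37, 0.48, 0.51 and 0.59 from the nearest to the farthest bin, while TAC against Veh/Sham had 0.67, 0.67, 0.69 and 0.58. Intervals called in Iso covered 24.7%, 42.6%, 37.3% and 45.1% of the bins from the nearest to the farthest, against 36% of all regions. The share thus did not rise at every step. Because the regions beyond 10000 bp are nearly all downstream of their genes, the same was read in upstream regions alone: TAC against Iso had medians of 0.35, 0.15 and 0.11 in the 108, 158 and 235 upstream regions of the first 3 bins. The 19 upstream regions beyond 10000 bp had 0.14 (-0.11 to 0.48), which is not below the bins before it and is too wide to place. By side, TAC against Iso was 0.17 in upstream regions, 0.07 in downstream regions and 0.24 in regions upstream of one gene and downstream of another.

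**Figure D2:**
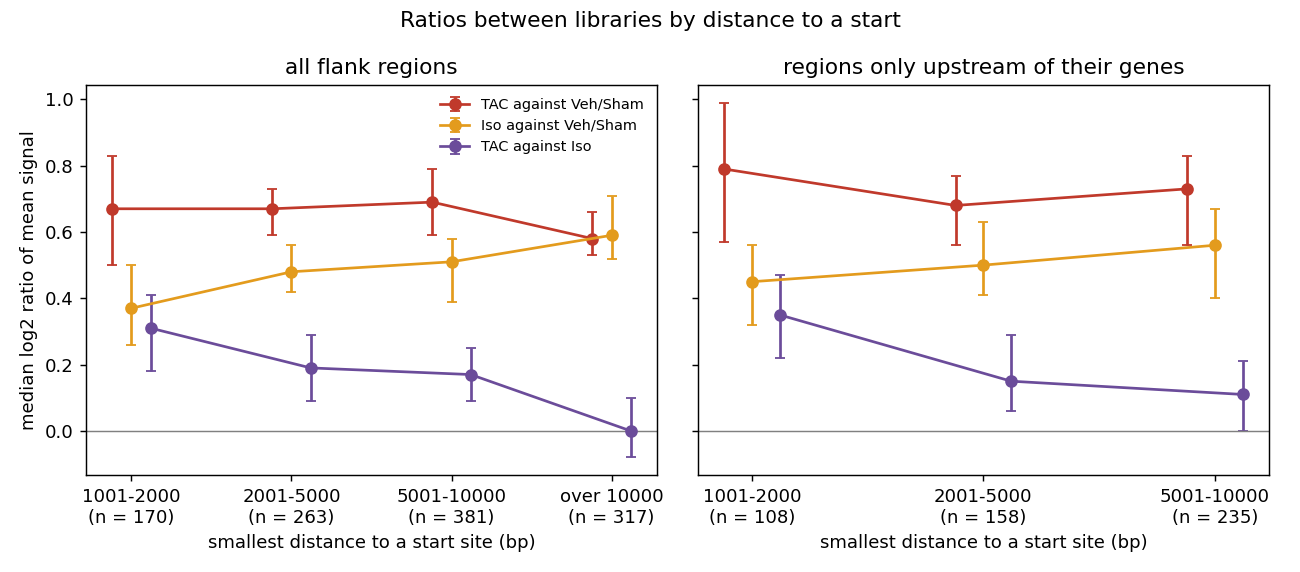
Median log2 ratio of mean signal (vertical axis, with 95% order-statistic intervals over regions) by smallest distance to a start site (bp), for all flank regions and for those lying only upstream. The TAC against Iso median is 0.31 in the nearest bin and 0.00 beyond 10000 bp, and Iso against Veh/Sham goes from 0.37 to 0.59 over the same bins.

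At the limit of the rule itself, the 26 flank regions within 100 bp beyond the limit of 1000 bp had a median mean signal of 12.8 in TAC, 9.74 in Iso and 6.19 in Veh/Sham. The 27 regions outside genes within 100 bp short of it had 13.3 in TAC, 9.7 in Iso and 7.14 in Veh/Sham. Zfp27 and Zfp383, zinc finger genes, shared the nearest flank region at 1001 bp, with 10.4 in TAC, 3.73 in Iso and 4.82 in Veh/Sham. Sbf2 had the farthest, 317259 bp downstream of its start, with 13 in TAC, 10.7 in Iso and 5.09 in Veh/Sham.

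Many genes with a flank region also had a promoter region, which sets both in the same libraries at the same locus. Of the 1149 genes assigned to flank regions, 681 (59.3%) had a region within 1000 bp of a start, giving 662 different pairs, and 521 of the paired promoter regions (78.7%) overlapped a CpG island. This pairing was chosen after values had been seen. In TAC the flank region had a median signal of 14.1 and the promoter region 17.1, and the flank was the higher in 231 pairs (34.9%). In Iso the flank had 12.5 and the promoter 11.4, and the flank was the higher in 345 pairs (52.1%). In Veh/Sham the flank had 8.34 and the promoter 10.1, and the flank was the higher in 251 pairs (37.9%). The median log2 ratio of flank over promoter was -0.28 (-0.35 to -0.22) in TAC, 0.05 (-0.06 to 0.14) in Iso and -0.27 (-0.37 to -0.19) in Veh/Sham, so the medians of TAC and Veh/Sham lay close together and that of Iso above both.

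The same pairs seen as ratios between libraries gave a median for TAC against Veh/Sham of 0.64 in flanks and 0.64 in promoters, and the flank ratio was the higher in 320 pairs (48.3%). For Iso against Veh/Sham the medians were 0.49 in flanks and 0.17 in promoters, with the flank ratio higher in 441 pairs (66.6%). For TAC against Iso they were 0.17 in flanks and 0.48 in promoters, with the flank ratio higher in 200 pairs (30.2%). A single scaling factor per library would cancel in the ratio of flank over promoter, apart from the pseudocount. Other differences between the libraries need not cancel and were not tested. Of the paired promoter regions, 78.7% overlapped a CpG island, so the pairs largely set regions without an island against island regions. The share of the islands in these values was not tested.

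The strongest flank regions in Veh/Sham were above the flank median in all 3 libraries. The region upstream of Tefm, a mitochondrial transcription elongation factor, and Adap2 (chr11:80148364-80148724 in the table's coordinates, mm10) had the highest Veh/Sham signal, 40.5, with 17.7 in TAC and 46.2 in Iso. Its peak depth was 29 in TAC, 73 in Iso and 64 in Veh/Sham, a TAC to Veh/Sham ratio of 0.453 with a 95% counting interval of 0.282 to 0.713. TAC was the low library there, and Iso and Veh/Sham lay together. Next came the region of Ube2v1, a ubiquitin conjugation cofactor, and Tmem189 (33.2 in TAC, 36.8 in Iso and 35 in Veh/Sham). The Rcsd1 region, whose start window of Gm51752 is printed above, had 32.7 in TAC, 31.9 in Iso and 29.8 in Veh/Sham. The region of Man2c1, Neil1 and Commd4, with the Neil1 window above, had 29.2 in TAC, 31.4 in Iso and 26 in Veh/Sham; Neil1 is a DNA repair glycosylase. The region of Ak1 and Eng (endoglin, a TGF-beta co-receptor of endothelium) had 34.7 in TAC, 30.5 in Iso and 25.4 in Veh/Sham. At Vps18, a vacuolar sorting subunit, the values were 36.3 in TAC, 31 in Iso and 24.6 in Veh/Sham, and at the zinc finger gene Zfp667 they were 21.8 in TAC, 36.9 in Iso and 24.5 in Veh/Sham.

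Single regions with extreme ratios were taken among the 567 flank regions at or above the median of the 3-library mean (10.7). They were picked for their ratio, so the counting intervals given with them, which cover counting error of fragments without molecular identifiers, are descriptions and no test. The highest ratio of TAC to Veh/Sham was near Bhlhe40, a transcriptional repressor tied to the circadian clock (chr6:108667066-108667308). Its mean signal was 20.8 in TAC, 9.38 in Iso and 2 in Veh/Sham, 7.25-fold higher in TAC than in Veh/Sham on the scale with the pseudocount, and its peak depths of 25 in TAC and 5 in Veh/Sham gave a ratio of 5 (1.88 to 16.7). TAC stood well above Veh/Sham with Iso between them. The next region at the same gene had 9 in TAC, 6.14 in Iso and 4.86 in Veh/Sham, so the high ratio belonged to 1 of 2 neighbours.

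Like patterns stood at Fscn1, the actin bundler fascin (20.3 in TAC, 9.83 in Iso and 3 in Veh/Sham), and at Tinagl1, a matrix protein (21.3 in TAC, 8.67 in Iso and 3.5 in Veh/Sham). Cep19, a centrosomal protein gene, had 22.8 in TAC, 13.3 in Iso and 4.44 in Veh/Sham. Ino80c, a subunit of the INO80 chromatin remodeller, had 2 such downstream regions: one with 26 in TAC, 15 in Iso and 5.06 in Veh/Sham, the other with 16.8 in TAC, 27.9 in Iso and 6.33 in Veh/Sham. Both lay well above Veh/Sham, and the higher of TAC and Iso was not the same in them. Sema6a, a semaphorin, had the highest Iso ratio of the set, with 13.4 in TAC, 18.9 in Iso and 2.5 in Veh/Sham (log2 ratio 2.04 for TAC and 2.51 for Iso).

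Among the regions lower in TAC than in Veh/Sham, Htra3, a secreted serine protease, had the lowest ratio (chr5:35647523-35647783), with 4 in TAC, 25 in Iso and 15.5 in Veh/Sham. Its log2 ratio was -1.72 for TAC against Veh/Sham and 0.66 for Iso against Veh/Sham, and its peak depths were 6 in TAC, 30 in Iso and 21 in Veh/Sham. TAC was low and Iso high around Veh/Sham, though the counting interval of the Iso to Veh/Sham peak ratio held 1 (0.791 to 2.63). Esm1, the endothelial proteoglycan endocan, had 6 in TAC, 15 in Iso and 12 in Veh/Sham, and Vps45 had 6.09 in TAC, 13.7 in Iso and 12.5 in Veh/Sham. In both of these TAC alone was low.

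In Iso against Veh/Sham, the high regions included Srrm1, a splicing coactivator (11.5 in TAC, 18.6 in Iso and 3.41 in Veh/Sham), and Nuak2, a kinase related to AMPK (7.89 in TAC, 21.2 in Iso and 4.56 in Veh/Sham). The Nuak2 region is the one whose F730311O21Rik start window is printed above, and its Iso to Veh/Sham peak ratio was 3.86 (1.64 to 10.5). The region downstream of Hmha1 and Polr2e, an RNA polymerase subunit, had 17.6 in TAC, 28.4 in Iso and 6.56 in Veh/Sham. Low in Iso was the region downstream of Smdt1, a regulator of the mitochondrial calcium uniporter, and upstream of Ndufa6, a complex I subunit, with 13.5 in TAC, 8.25 in Iso and 17.9 in Veh/Sham. Neurl3, a ubiquitin ligase gene, had the lowest Iso ratio, with 19 in TAC, 3.71 in Iso and 9.88 in Veh/Sham.

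Set against each other, TAC exceeded Iso most at Neurl3 (log2 ratio 2.08) and at the shared upstream region of Junb, an AP-1 subunit, and Hook2. The Junb region had 22.4 in TAC, 4.57 in Iso and 5.14 in Veh/Sham, and its TAC to Iso peak ratio was 4 (1.71 to 10.8). Mknk2, a kinase that phosphorylates the translation factor eIF4E, had 23.9 in TAC, 5.25 in Iso and 5.12 in Veh/Sham. Bahcc1, a chromatin reader, had 33 in TAC, 7.67 in Iso and 8 in Veh/Sham. Socs5, a suppressor of cytokine signalling, had 21.7 in TAC, 6.29 in Iso and 6.29 in Veh/Sham. At these 4 regions Iso lay near Veh/Sham and TAC stood apart. Aplnr, the apelin receptor, had 19.4 in TAC, 5.2 in Iso and 8.3 in Veh/Sham.

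Iso exceeded TAC most, after Htra3, at Plekha6 (6.29 in TAC, 21 in Iso and 6.14 in Veh/Sham) and at Atp2a3, a calcium pump of internal membranes (7.85 in TAC, 24.5 in Iso and 9 in Veh/Sham). Ung, a uracil DNA glycosylase, had 7.2 in TAC, 21.5 in Iso and 7.1 in Veh/Sham. In these 3 regions TAC lay near Veh/Sham and Iso stood apart. Cst3, which encodes cystatin C, an inhibitor of cysteine proteases, had 2 neighbouring upstream regions with opposite patterns. The one nearer its start (chr2:148878849-148879060) had 11.8 in TAC, 6.67 in Iso and 13.7 in Veh/Sham, and the next (chr2:148879206-148879453) had 9 in TAC, 26 in Iso and 8.71 in Veh/Sham. Iso was thus the lowest library in one and the highest in the other.

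Flank regions often came in groups. Of the 1131, 416 (36.8%) lay within 5000 bp of another flank region, in 166 groups of up to 8. Of the 1149 genes, 885 had 1 flank region and 264 (23%) more than 1. The 14 genes with 5 or more, a set chosen after values had been seen, included Heg1, Malat1, Mcl1, Irf2bpl, Sox18, Cdc42ep1, Id1, Gm15441, Gm10282, Vps18, Trim47, Egfl7 and Fam65a. Their 82 regions are not independent of each other, since regions of 1 gene share a locus. The median mean signal of the 82 was 14.5 in TAC, 9.28 in Iso and 7.63 in Veh/Sham, and TAC was the highest library in 61 (74.4%), against 561 (53.5%) of the other 1049 flank regions. Of the 82, 55 were at least 1.5-fold higher in TAC than in Veh/Sham and 2 lower, and 32 were higher and 0 lower in TAC than in Iso. For Iso against Veh/Sham, 23 were higher and 4 lower. The shares higher were 67.1%, 39% and 28% for TAC against Veh/Sham, TAC against Iso and Iso against Veh/Sham, against 52.7%, 23.5% and 45.9% of the other flank regions and 50.3%, 31.4% and 31.8% of all regions.

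Heg1, a membrane protein of endothelium needed for heart and vessel formation, had 8 upstream regions within 7926 bp. Their mean signal ranged from 7.42 to 22.7 in TAC, 3.83 to 24.4 in Iso and 3.83 to 21.5 in Veh/Sham. The farthest, 8902 bp upstream, had 18.5 in TAC, 3.83 in Iso and 3.83 in Veh/Sham, while the nearest, 1185 bp upstream, had 7.5 in TAC, 10.7 in Iso and 15.8 in Veh/Sham. In mean signal TAC was thus the highest library at one end of the flank and the lowest at the other. The counting interval of the TAC to Veh/Sham peak ratio held 1 at the nearest region (0.308 to 1.57) and not at the farthest (1.46 to 13.6). In the strongest region between these ends the 3 libraries lay within 21.5 to 24.4. Malat1, an abundant nuclear long non-coding RNA, had 7 upstream regions. The nearest of these (23.7 in TAC, 21.4 in Iso and 20.5 in Veh/Sham) was the strongest and nearly even, and the next one out had 15.6 in TAC, 5.9 in Iso and 4.4 in Veh/Sham.

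At Id1, an inhibitor of basic helix-loop-helix factors, TAC exceeded Veh/Sham by at least 1.5-fold in 6 of 6 flank regions (median log2 ratio 1.43, range 0.60 to 2.55). The region 6915 bp upstream had 14.8 in TAC, 6.2 in Iso and 1.7 in Veh/Sham. Mcl1, which encodes a survival protein of the Bcl-2 family, had 7 regions, 6 of them at least 1.5-fold higher in TAC (median 1.36) and 5 at least 1.5-fold higher in Iso (median 0.79) than in Veh/Sham. Its most distant region, 14636 bp downstream of the start and shared with Adamtsl4, had 20.1 in TAC, 5.8 in Iso and 2.21 in Veh/Sham. Egfl7, a secreted factor of endothelium, had 5 upstream regions, all at least 1.5-fold higher in TAC than in Veh/Sham (median 0.94, range 0.62 to 1.77), with 1 higher and 1 lower in Iso. At Trim47, 1 of 5 regions was higher in TAC, so the pattern did not hold at every such locus.

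**Figure D3:**
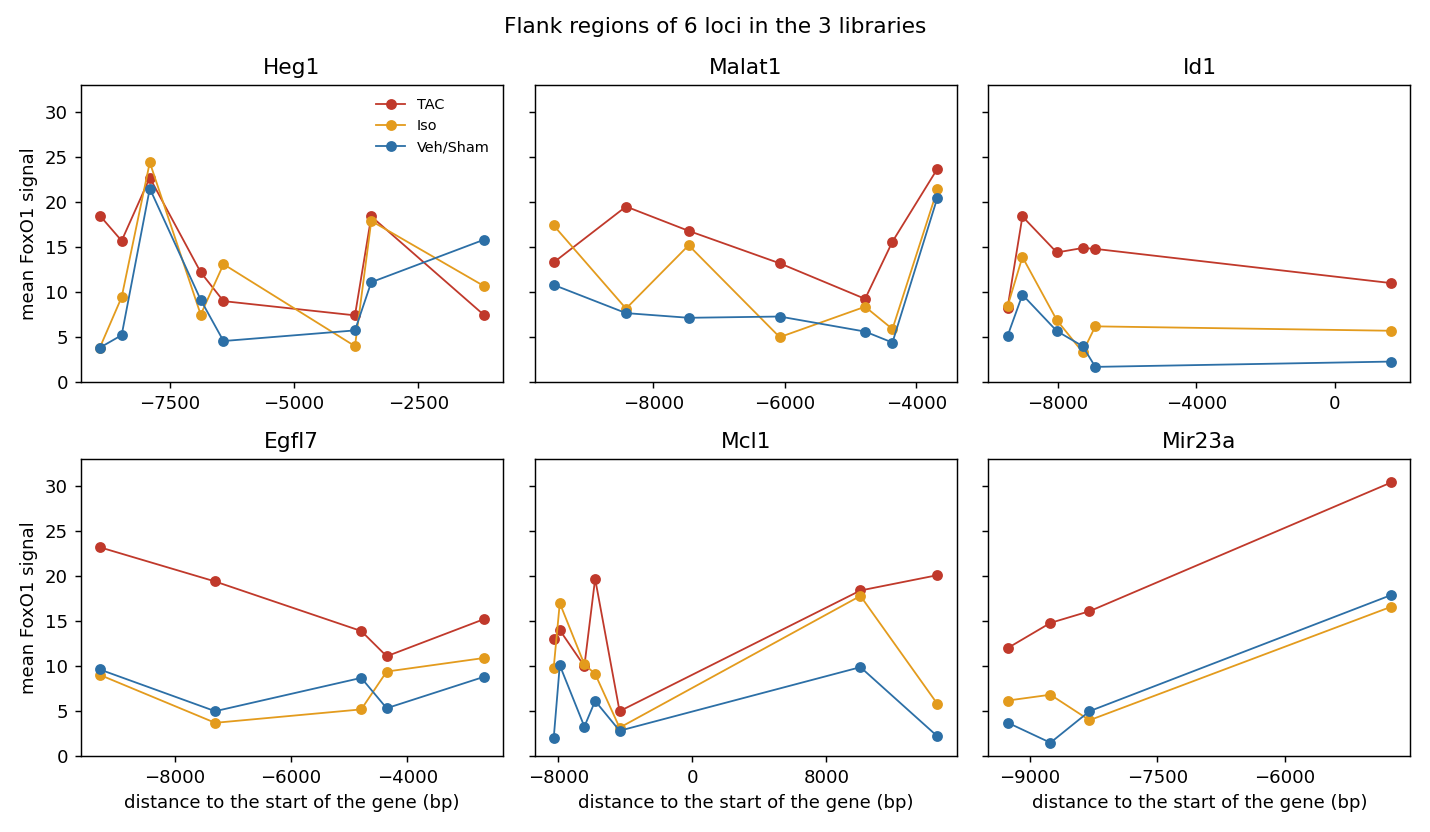
Mean FoxO1 signal of each flank region (vertical axis, coverage; 1 point per region and library, joined along the locus) against its distance to the start of the gene (bp, negative upstream) at Heg1, Malat1, Id1, Egfl7, Mcl1 and Mir23a in the TAC, Iso and Veh/Sham libraries. At Id1 and Egfl7 TAC exceeds Veh/Sham at every region, while at Heg1 the nearest region has 7.5 in TAC and 15.8 in Veh/Sham.

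FoxO target genes from a list chosen for the study's factor had flank regions in 9 of 44 cases (20.5%), 16 regions in all. Some region of any class was assigned to 39 of the 44. For comparison, 1149 of the 11718 genes in the table (9.81%) and 978 of the 21900 protein-coding genes of RefSeq (4.47%) had a flank region. Of the 16 regions, 10 were at least 1.5-fold higher and 0 lower in TAC than in Veh/Sham (median 0.91, against 0.59 in all regions, of which 50.3% were higher), and 6 were higher and 1 lower in Iso than in Veh/Sham (median 0.44, against 0.30 in all regions, of which 31.8% were higher). Beyond the 2 strongest regions of each list, the regions named here and below were chosen after their values were seen. The strongest belonged to Bnip3, a mitophagy receptor, with 28.4 in TAC, 19.8 in Iso and 22.5 in Veh/Sham, a spread of less than 1.5-fold. Txnip, which binds thioredoxin and limits glucose uptake, had 4 regions, and its broadest had 20.4 in TAC, 14.2 in Iso and 12.6 in Veh/Sham. Its region 13945 bp downstream of its start, shared with Gm15441 and Polr3gl, had 22.1 in TAC, 8.81 in Iso and 6.86 in Veh/Sham. In mean signal TAC was highest at both, and Iso lay near Veh/Sham. In peak depth Iso was highest at the broadest region, with 44 in TAC, 51 in Iso and 40 in Veh/Sham.

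Lpl, the lipoprotein lipase that releases fatty acids for heart muscle, had the widest Iso ratio of this list. Its region 28261 bp downstream of the start had 8.75 in TAC, 15.6 in Iso and 2.5 in Veh/Sham (log2 ratio 1.48 for TAC and 2.25 for Iso). Ddit4, an inhibitor of mTORC1, had 4 weak regions of 6.29 to 10.2 in TAC, 1.86 to 6.57 in Iso and 1.75 to 4.71 in Veh/Sham. Sesn2, a stress-induced inhibitor of mTORC1, had 13.6 in TAC, 20.2 in Iso and 10.9 in Veh/Sham. Cdkn1b, which encodes the cell cycle inhibitor p27, had 16.1 in TAC, 15.7 in Iso and 9.33 in Veh/Sham. Klf4 had 11.1 in TAC, 6.36 in Iso and 4.64 in Veh/Sham, and G6pc, the glucose-6-phosphatase of liver and kidney, 5.95 in TAC, 6.94 in Iso and 4.64 in Veh/Sham. Veh/Sham was the lowest library at each of these last 4 genes.

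Endothelial markers had flank regions in 10 of 27 cases (37%), and 25 of the 27 had some region in the table. Their 25 flank regions had a median of 0.62 for TAC against Veh/Sham, with 14 higher and 1 lower, and a median of 0.25 for Iso against Veh/Sham, with 8 higher and 3 lower. These are near the values of all regions, which had medians of 0.59 and 0.30 and shares higher of 50.3% in TAC and 31.8% in Iso. In whole hearts, a change in the number of endothelial cells and a change in FoxO1 binding per cell cannot be told apart. Nos3, the endothelial nitric oxide synthase, had the widest TAC ratio, with 15.8 in TAC, 6.22 in Iso and 1.83 in Veh/Sham (log2 ratio 2.57 for TAC). Fli1, an ETS factor, had 15.2 in TAC, 9.19 in Iso and 4.81 in Veh/Sham at its region nearest the start, and 12.2 in TAC, 10.8 in Iso and 11.9 in Veh/Sham at the next. TAC was high at the first and level with the others at the second.

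Sox18, an endothelial transcription factor, had 6 regions on both sides, 8.62 to 20.6 in TAC, 5.71 to 19.7 in Iso and 5.57 to 17.1 in Veh/Sham, with 4 of them higher in TAC than in Veh/Sham. Fabp4, a fatty acid binding protein of capillaries, had Iso as the highest library in both of its regions, with 13.5 in TAC, 18.9 in Iso and 13.8 in Veh/Sham at one and 11.6 in TAC, 21.8 in Iso and 9.8 in Veh/Sham at the other. Aqp1, a water channel, had a lower mean signal in both hypertrophy libraries than in Veh/Sham. It had 4.67 in TAC, 1.17 in Iso and 10.2 in Veh/Sham at one region and 6.67 in TAC, 2.67 in Iso and 8.78 in Veh/Sham at the other. Neither region was called in any library. The counting intervals of their peak ratios to Veh/Sham held 1, apart from Iso at the first region (0.0169 to 0.68). Cdh5, which encodes VE-cadherin, had 13.1 in TAC, 10.6 in Iso and 15.1 in Veh/Sham at one region and 13.5 in TAC, 14.6 in Iso and 10.2 in Veh/Sham at the other. Endothelial genes thus did not share 1 order of the libraries.

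**Figure D4:**
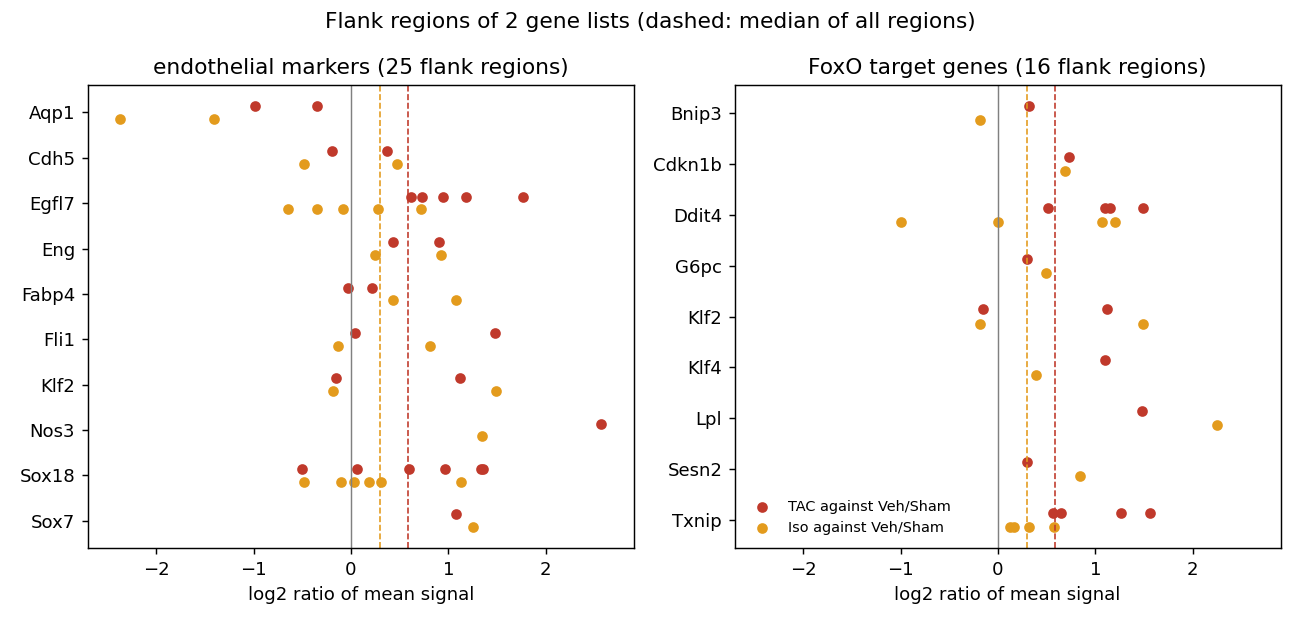
Log2 ratio of mean signal (horizontal axis) of each flank region of endothelial markers and FoxO target genes, for TAC against Veh/Sham and for Iso against Veh/Sham; each point is 1 region and dashed lines are the medians of all regions (0.59 and 0.30). Egfl7, Nos3, Txnip and Ddit4 lie to the right of 0 at every TAC point, and both Aqp1 regions lie to the left in both comparisons.

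Circadian clock genes had flank regions in 5 of 20 cases (25%), with 10 regions. Of these, 8 were higher and 0 lower in TAC than in Veh/Sham (median 0.86), and 6 were higher and 0 lower in Iso than in Veh/Sham (median 0.69). Over all regions 50.3% were higher in TAC (median 0.59) and 31.8% in Iso (median 0.30). Nr1d1, the repressor REV-ERB alpha, had the strongest of them, 8213 bp upstream (chr11:98782645-98784266). Its mean signal was 29.7 in TAC, 35.1 in Iso and 24 in Veh/Sham, and its peak depth of 76 in TAC, 130 in Iso and 99 in Veh/Sham had TAC as the lowest library, so mean and peak ordered TAC and Veh/Sham differently. Per1, a core negative regulator of the clock, had 3 regions of 12.9 to 17.8 in TAC, 9.71 to 13.7 in Iso and 6.29 to 7.25 in Veh/Sham. Veh/Sham was the lowest library in each, as it was in 62.5% of all regions. The counting intervals of their peak ratios to Veh/Sham held 1, apart from TAC at the region with 17.8 (1.13 to 5.3). Nfil3 had 7.56 in TAC, 14.9 in Iso and 4.11 in Veh/Sham, and Tef, a PAR bZIP factor, 14.1 in TAC, 15.8 in Iso and 9.5 in Veh/Sham. The hour at which hearts were taken is not given in the labels.

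Fibroblast and matrix genes had flank regions in 5 of 30 cases (16.7%), with 8 regions, 5 higher and 2 lower in TAC than in Veh/Sham (median 0.90) and 3 higher and 1 lower in Iso (median 0.36). The whole table had 50.3% higher and 4.19% lower in TAC, and 31.8% higher and 8.01% lower in Iso. Timp2, an inhibitor of matrix metalloproteinases, had 24.9 in TAC, 16.6 in Iso and 5.67 in Veh/Sham. Tgfb1 had 3 downstream regions, the strongest with 20.9 in TAC, 13.4 in Iso and 11.2 in Veh/Sham and the next with 7.57 in TAC, 6.14 in Iso and 15.6 in Veh/Sham, so Veh/Sham was the lowest library in one and the highest in the other. Col6a1, a collagen chain, had 14.2 in TAC, 8.69 in Iso and 5 in Veh/Sham, and the matrix protein Sparc 12.2 in TAC, 8.5 in Iso and 5.75 in Veh/Sham.

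Cardiac transcription factors had flank regions in 4 of 25 cases. Tbx20 had 10.5 in TAC, 4.67 in Iso and 2.5 in Veh/Sham, and Nfatc3, an effector of calcineurin, 19.2 in TAC, 12.9 in Iso and 5.78 in Veh/Sham. Nfatc1 had 9.89 in TAC, 9.72 in Iso and 14.9 in Veh/Sham, so the regions of these NFAT genes lay on opposite sides of Veh/Sham in mean signal. The counting intervals of the Nfatc1 peak ratios to Veh/Sham held 1 in TAC (0.331 to 1.31) and in Iso (0.305 to 1.24). Those at the Nfatc3 region, which is shared with Dus2l, did not. Hand2 had 10.9 in TAC, 6.48 in Iso and 9.52 in Veh/Sham. Of the hypertrophy and fetal genes, 1 of 20 had a flank region, Gdf15, a stress cytokine, with 18.3 in TAC, 13.4 in Iso and 5.1 in Veh/Sham. None of 30 sarcomere genes, 25 ion channel and calcium genes or 31 leukocyte markers had one, while 9, 8 and 10 of them had some region in the table. Of all genes in the table, 9.81% had a flank region, so these lists are too small to read an absence from.

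Metabolic nuclear receptors and their targets had 7 flank regions in 5 of 28 cases, with 3 higher and 0 lower in each hypertrophy library, against 50.3% of all regions higher in TAC and 31.8% in Iso. Nr4a3 had 15.6 in TAC, 5.29 in Iso and 3.29 in Veh/Sham, and the related Nr4a1 had 12.8 in TAC, 10.2 in Iso and 10.2 in Veh/Sham. Cd36, the fatty acid transporter, had Iso as its highest library in both regions, with 11.7 in TAC, 15.6 in Iso and 9.44 in Veh/Sham at the stronger. Autophagy genes had 2 regions, that of Bnip3 above and that of Sqstm1, the cargo receptor p62, with 24.6 in TAC, 20.1 in Iso and 12 in Veh/Sham. Of 34 insulin and growth factor signalling genes 1 had a flank region, Gsk3a, with 24.7 in TAC, 31.6 in Iso and 23.7 in Veh/Sham. Of 16 erythroid and platelet markers 1 had one, Tal1, a blood and endothelial lineage factor, with 23.3 in TAC, 11.3 in Iso and 5.89 in Veh/Sham.

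Of the genes matched to RefSeq, 979 were protein coding, 81 long non-coding RNA genes and 20 microRNA genes. MicroRNAs are short RNAs that pair with messenger RNAs through their seed, bases 2 to 8. The 20 microRNA genes had 25 flank regions, 31 mature sequences and 30 different seeds. The microRNAs themselves were not measured. The sequences below are those of the loci with several regions, and of miR-30a and the 181 pair; the seed is in capitals, and miR-181c and miR-181d share theirs.
miR-23a-3p: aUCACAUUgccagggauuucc
miR-27a-3p: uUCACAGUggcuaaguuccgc
miR-24-3p: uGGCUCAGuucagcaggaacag
miR-22-3p: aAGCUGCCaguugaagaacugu
miR-26b-5p: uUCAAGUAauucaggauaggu
miR-30a-5p: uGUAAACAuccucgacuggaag
miR-181c-5p: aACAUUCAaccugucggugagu
miR-181d-5p: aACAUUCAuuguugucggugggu

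The sequences are RefSeq's, on GRCm38.p6, and this look at microRNAs was chosen after values had been seen. Of the 25 regions, 17 were at least 1.5-fold higher and 0 lower in TAC than in Veh/Sham (median 0.85), and 13 higher and 0 lower in Iso than in Veh/Sham (median 0.58), against 50.3% and 31.8% of all regions higher in TAC and in Iso. The whole table had 4.19% lower in TAC and 8.01% lower in Iso. Taken against the table's median ratio, 7 (28%) stood above and 3 (12%) below in TAC, against 18.4% and 17% of all regions. In Iso 9 (36%) stood above and 0 below, against 17.8% and 16.1%. Several of the 25 share a locus and are not independent of each other. The cluster of Mir23a, Mir27a and Mir24-2, which is transcribed as 1 unit, had 4 regions, all upstream of Mir23a. Their mean signals were 12, 14.8, 16.1 and 30.4 in TAC, 6.18, 6.83, 4 and 16.6 in Iso, and 3.73, 1.5, 5 and 17.9 in Veh/Sham. TAC was the highest library in all 4, and Iso exceeded Veh/Sham in 2 of them. The strongest was called in all 3 libraries.

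Mir22, whose microRNA is abundant in heart muscle, had 3 regions. The first had 17.9 in TAC, 4.29 in Iso and 3.57 in Veh/Sham, the second 12.7 in TAC, 13.7 in Iso and 6.5 in Veh/Sham, and the third 12.8 in TAC, 8.5 in Iso and 3.67 in Veh/Sham. Veh/Sham was the lowest in each, and TAC stood apart from Iso in the first. Mir26b, within Ctdsp1, had 4 regions of 15 to 26 in TAC, 7.38 to 23.4 in Iso and 3.83 to 16.7 in Veh/Sham. Mir30a had 18.9 in TAC, 10.1 in Iso and 10 in Veh/Sham. The regions shared by Mir181c and Mir181d, which carry the same seed, had 8.36 in TAC, 11.4 in Iso and 8.43 in Veh/Sham at one, and 8.83 in TAC, 6.5 in Iso and 4 in Veh/Sham at the other.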

How the data were processed

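FoxO1 ChIP-seq libraries of TAC, Iso and Veh/Sham hearts, 1 per condition, were compared. The submitters' processing notes name SICER, BWA and mm10 (no role or version), and a Drosophila chromatin spike-in was added, per the labels. The authors deposited a table of merged regions with, for each library, signal values (mean and highest coverage) and a mark of whether an interval was called; their scaling was not given in the sources used here. Highest coverage was a whole number in every region and was treated as a depth of fragments. A further 6 columns, of 2 libraries that match no sample, were not used here.

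Log2 ratios of mean signal were computed with a pseudocount of 1, which understates ratios of low regions. Higher and lower mean at least 1.5-fold on that scale, which is a size rule, not a test. Medians have 95% order-statistic intervals over regions, shares Wilson intervals, and peak depth ratios exact Clopper-Pearson intervals. Intervals of medians and shares give the precision of that median or share if regions were independent, which neighbouring regions are not. Those of peak depth ratios cover counting error, and none of the intervals covers the spread between hearts. Members, lists and comparisons were chosen with earlier results of these data known. Named regions were the 8 highest in Veh/Sham, the 6 highest and 6 lowest ratios per pair of libraries among members at or above the median signal (without predicted symbols), the 2 strongest per list, and the nearest and farthest from a start. Of 1149 assigned genes, 1110 (96.6%) matched RefSeq, whose assembly GRCm38.p6 gave gene positions and start windows. A search for forkhead letters across the flank regions themselves was planned and not run, since no genome was used here. The log2 ratio with its 1.5-fold rule and the interval of peak depth ratios were tested on simulated depths first. The other steps were not tested in this way. Alternatives are in the closing section. Computations used scipy 1.17.1, pandas 2.3.3 and numpy 2.4.6 under Python 3.11.15, and figures matplotlib 3.10.9.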

Additional observations from a re-analysis of the deposited data

Results flagged for a closer look

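A few flank regions had TAC and Iso on opposite sides of Veh/Sham among the regions named above, which differ in direction with 1 library each, so the difference was not tested. Htra3 had a log2 ratio of -2.38 for TAC against Iso, made of -1.72 for TAC and 0.66 for Iso, each against Veh/Sham. Neurl3 had 2.08 for TAC against Iso, made of 0.88 for TAC and -1.21 for Iso. Aplnr had 1.72, made of 1.13 for TAC and -0.58 for Iso. These regions were picked for their ratios. The counting interval of the Iso to Veh/Sham peak ratio held 1 at Htra3 (0.791 to 2.63), Neurl3 (0.221 to 1.6) and Aplnr (0.166 to 1.61). That of TAC to Veh/Sham held 1 at Neurl3 (0.816 to 3.66), but not at Htra3 (0.0944 to 0.732) or Aplnr (1.13 to 5.3). Over all flank regions, 9 (0.796%) were at least 1.5-fold higher in TAC and at least 1.5-fold lower in Iso than in Veh/Sham, against 213 (1.32%) of all regions, and 6 (0.531%) were lower in TAC and higher in Iso, against 60 (0.372%). Both comparisons share the Veh/Sham library.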

How the results depend on the processing

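Of the values recomputed, 80 stayed within the tolerance, 39 moved and 1 changed sign. Recentring each ratio on the median of all regions gave medians of 0.06 between TAC and Veh/Sham, 0.21 between Iso and Veh/Sham and -0.15 between TAC and Iso, the 1 that changed sign, by construction. The counts of higher and lower regions were then 258 and 196, 321 and 122, and 152 and 297 for these comparisons. With peak depth the median was 0.58 between TAC and Veh/Sham, and 0.08 between TAC and Iso. TAC against Veh/Sham had a median of 0.71 with a pseudocount of 0.1, 0.47 with 5, and 0.58 in regions called in either library. With a pseudocount of 5 there were 35 lower regions in TAC, and Iso against Veh/Sham had a median of 0.36 and 29 lower. Without the 25% of lowest signal (827 regions left), 29 were lower in TAC and 23 in Iso than in Veh/Sham, and 181 higher in TAC than in Iso. A 2-fold rule left 342 higher and 25 lower for TAC against Veh/Sham, 259 and 23 for Iso against Veh/Sham, and 121 and 72 for TAC against Iso. In regions called in either library, 322 of 644, 264 of 618 and 163 of 632 were higher. Beyond 5000 bp (698 regions), 368 were higher in TAC than in Veh/Sham, 333 higher and 32 lower in Iso than in Veh/Sham (median 0.56), and 155 higher in TAC than in Iso (median 0.10), with 267 called in TAC, 285 in Iso and 283 in Veh/Sham. With 1 assigned gene (797 regions), 39 were lower in TAC. Without regions that overlap a RefSeq gene (790 left), 287 were called in TAC; this alternative was added after seeing the data. Apart from recentring and the changes of region set, the causes were not tested.

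No paired analysis was possible because each condition had 1 library, and leaving out replicates was not possible for the same reason. The planned motif windows of other widths were not run. With 1 pool per condition, differences between hearts, surgery and library preparation cannot be told apart from the condition. Peak depths of 11 to 17 at the median limit single regions to wide counting intervals. An unknown scaling between libraries limits every count of higher and lower regions, while the comparison with other classes and with promoters of the same genes sets values of the same libraries side by side.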

Other observations

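Outside the rule for named regions, the flank region downstream of the olfactory receptor genes Olfr433, Olfr432 was the 1 with a mean signal of 0 in TAC, with 6.88 in Iso and 3.17 in Veh/Sham. The highest TAC signal of any flank region, 37.9, lay 8624 bp upstream of Atg16l2, a relative of the autophagy factor Atg16l1, with 38.6 in Iso and 22.4 in Veh/Sham. A further region, assigned to the gene pair Mknk2, Mob3a, apart from the one named above, had 37.8 in TAC, 29.9 in Iso and 20.9 in Veh/Sham, so the regions of this locus differed in whether Iso lay near TAC or near Veh/Sham.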
